A study of Rattus norvegicus with 8 samples.

Results

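The genes described here encode the nuclear subunits of the oxidative phosphorylation complexes. They were chosen by symbol alone, as the genes whose names start with Ndufa, Ndufb, Ndufc, Ndufs, Ndufv, Sdha, Sdhb, Sdhc, Sdhd, Uqcr, Cox4, Cox5, Cox6, Cox7, Cox8 or Atp5. The 10 assembly factors named Ndufaf or Sdhaf were left out. The rule gave 80 of the 12282 genes listed in the count tables, and all 80 were listed in all 8 libraries. By the complex in which they work, 35 belong to complex I, 4 to complex II, 8 to complex III, 16 to complex IV and 17 to complex V. Atp5s and Cox7a2l were kept because their symbols fit, although they are not plain structural subunits of their complexes.

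The libraries came from fracture callus of Sprague Dawley rats with a closed fracture of 1 femur, fixed with an intramedullary nail of stainless steel or one containing magnesium. The groups were control animals whose treatment is labelled untreated, animals given zoledronate, animals given zoledronate and CGRP, and animals given zoledronate and Mg, each sampled 4 and 12 weeks after fracture. The last 2 are called the CGRP and the magnesium group below. Zoledronate, a bisphosphonate that blocks bone resorption by osteoclasts, was injected under the skin at 0.3 mg/kg per week for 12 weeks before the fracture; the text that gives this is attached to the control libraries too. CGRP is a neuropeptide released by sensory nerve endings in bone. The labels used here do not give the nail of each group, the dose or route of CGRP, or the number of animals behind a library. Callus was digested with collagenase A for 4 hours and the cells were kept in a dish for 24 hours before droplet single-cell capture. Each of the 8 groups is 1 library. No comparison below therefore has a replicate check or a p-value, and intervals cover counting error only.

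Levels are in CPM: the molecules (UMIs) of a gene summed over all barcodes with at least 5000 UMIs and divided by the total of those barcodes, so that 10000 CPM is 1% of the UMIs. Between 6809 and 10370 barcodes per library met that minimum, with 139656712 to 159685281 UMIs in all and medians of 12742 to 20545 UMIs per barcode. Any 2 libraries shared 13 to 31 barcodes. The cells carried fibroblastic markers at a summed 36562 to 57959 CPM and smooth muscle and pericyte markers at 10032 to 18370 CPM. Most of the latter sum came from Tagln, with 7272 to 13472 CPM, and Acta2, with 1611 to 4207 CPM. In the same list Cnn1 reached 802 CPM, but Kcnj8 only 1.42 CPM and Notch3 0.0255 CPM, and Rgs5 was not among the listed genes. That sum therefore does not by itself show pericytes. Markers of other callus cells summed to 22.9 to 67.8 CPM (osteoblastic), 80.7 to 316 CPM (chondrocytic), 11.4 to 23.8 CPM (macrophage) and 59.0 to 163 CPM (osteoclast). Within these lists Bglap, Col2a1, Ptprc and Csf1r stayed at or under 0.526 CPM, while Acan reached 132 CPM, Sox9 106 CPM, Alpl 33.9 CPM, Cd14 15.2 CPM and Ctsk 150.3 CPM. Control at week 12 had the lowest fibroblastic sum, with Dcn at 2.28 CPM and Lum at 6.09 CPM. CGRP at week 4 was next, with a sum of 39121 CPM, Dcn at 9.31 CPM and Lum at 21.7 CPM. In magnesium at week 12 Dcn was at 47.2 CPM and Lum at 11.2 CPM.

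Oxidative phosphorylation takes electrons from NADH at complex I and from succinate at complex II, passes them through complex III and cytochrome c to oxygen at complex IV, and uses the proton gradient so built to make ATP at complex V. Most subunits are nuclear genes, translated in the cytosol and imported, and they are joined by a small set of subunits encoded in the mitochondrial genome. No gene with a symbol starting with Mt-, a common name for that set, was listed, and other names were not searched for. Some subunits have bacterial counterparts and carry the catalytic or proton-moving parts. The others are called supernumerary and support assembly and stability. A few subunits of complex IV also exist in tissue- or oxygen-dependent versions: Cox6a2 is the heart and skeletal muscle version of Cox6a1, Cox4i2 is a version of Cox4i1 known from lung and from hypoxia, and Ndufa4l2 is a hypoxia-inducible relative of Ndufa4, which is now counted with complex IV. Cox7a1 and Cox8b, the muscle partners of Cox7a2 and Cox8a, are not among the listed genes.

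NRF1 and the ETS-family factor GABP are the classical regulators of this gene set, so the promoters of the members were searched for their motifs. RefSeq (GRCr8) gave a promoter for 70 of the 80 genes. In the 250 bases before the start, on either strand, the palindromic consensus motif of NRF1 was found in 4 of 70 members (5.71%) and in 0.975% of 21851 protein-coding promoters. The ETS motif CCGGAAG was found in 19 members (27.1%) and in 9.01% of protein-coding promoters. The windows below show the members that hold the NRF1 motif, in capitals, and the strand of the gene is printed.
Atp5i, chr14:1464774-1464803, plus strand: ttgcgctacgGCGCATGCGCtttcctggct
Atp5mc2, chr7:135678255-135678284, minus strand: ggctctagtcGCGCATGCGCagagccttct
Atp5po, chr11:44657523-44657552, minus strand: acgccgacgcGCGCATGCGCtctggcatca
Ndufa11, chr9:1637507-1637536, plus strand: cctgcgctgtGCGCATGCGCatgcgcacag
In Ndufa11 another match overlaps the one shown. A match describes these letters and is not evidence that a factor binds there. The motifs were chosen after levels had been seen.

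Summed over all 80 genes, the subunits made up 2.84% to 3.18% of all UMIs. Control held 28445.5 CPM at week 4 and 29555 CPM at week 12. Zoledronate held 29258 CPM at week 4 and 31826 CPM at week 12, which was the highest value of the 8. With CGRP the sums were 30292 and 29667 CPM, and with magnesium 30172 and 30201 CPM, at weeks 4 and 12. The sum for complex I was highest at week 12 of zoledronate, 9371 CPM, and lowest at week 12 of control, 7991 CPM. Complex IV was highest in the same zoledronate library, 9932 CPM, and complex V was highest at week 4 of CGRP, 9100 CPM. Complex II had other extremes, from 388 CPM in control at week 4 to 326 CPM in zoledronate and 319 CPM in CGRP at week 12.

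The share also varied among the cells of a library. From the 5th to the 95th percentile of cells it ran from 2.46% to 3.27% in control at week 4. In control at week 12 it ran from 2.34% to 3.66%. Both ranges were wider than that of the library medians. In the median cell, 2.86% of UMIs came from the 80 genes in control at week 4 and 3.20% in zoledronate at week 12, and the medians of the other 6 libraries lay between these. The middle range of cells, from the 25th to the 75th percentile, was widest in control at week 12, 2.74% to 3.22%.

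**Figure D1:**
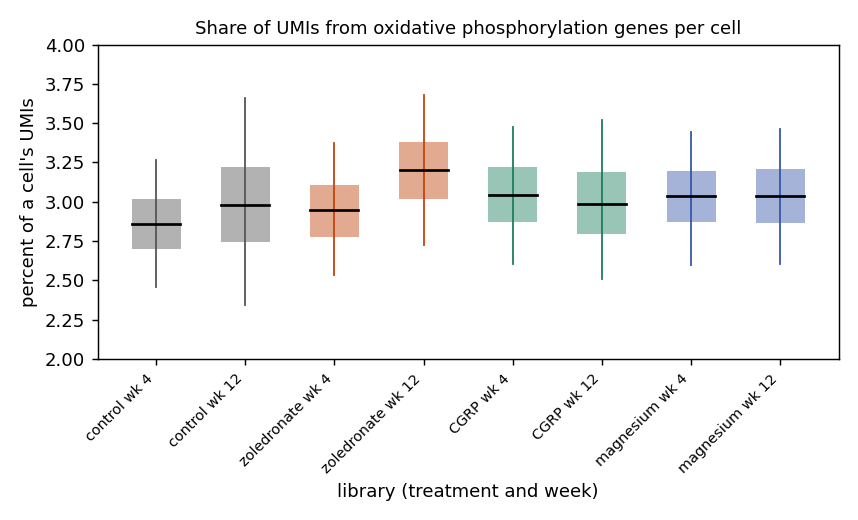
Share of each cell's UMIs that came from the 80 oxidative phosphorylation genes (vertical axis, percent, not starting at 0) in the 8 libraries (horizontal axis). Black lines are medians, boxes run from the 25th to the 75th percentile and thin lines from the 5th to the 95th, and the zoledronate week 12 median of 3.20% is the highest.

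Most members varied little. The mean over libraries reached 5 CPM for 78 of the 80 genes, and Cox6b2 and Ndufa10l1 stayed under 0.5 CPM in every library. The highest library exceeded the lowest by less than 1.5-fold for 68 of the 78, on the scale of CPM + 1 used for every range here. The median range was 1.23-fold, against 1.42-fold for all 7226 genes at that level, of which 40.6% ranged at least 1.5-fold. The 10 members past 1.5-fold were Ndufa4l2, Cox4i2, Cox6a2, Sdha, Uqcr10, Uqcrh, Ndufa8, Ndufa1, Atp5mc1 and Ndufb4, and the first 5 of them passed 2-fold. Zoledronate at week 12 was the highest library for 30 members, where it was highest for 14.9% of all genes. CGRP at week 4 was highest for 21 members and for 18.1% of all genes. Control was the lowest library for 23 members at week 12 (12.1% of all genes) and for 19 at week 4 (7.85%). Zoledronate at week 12 was lowest for 7 members and for 29.6% of all genes.

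**Figure D2:**
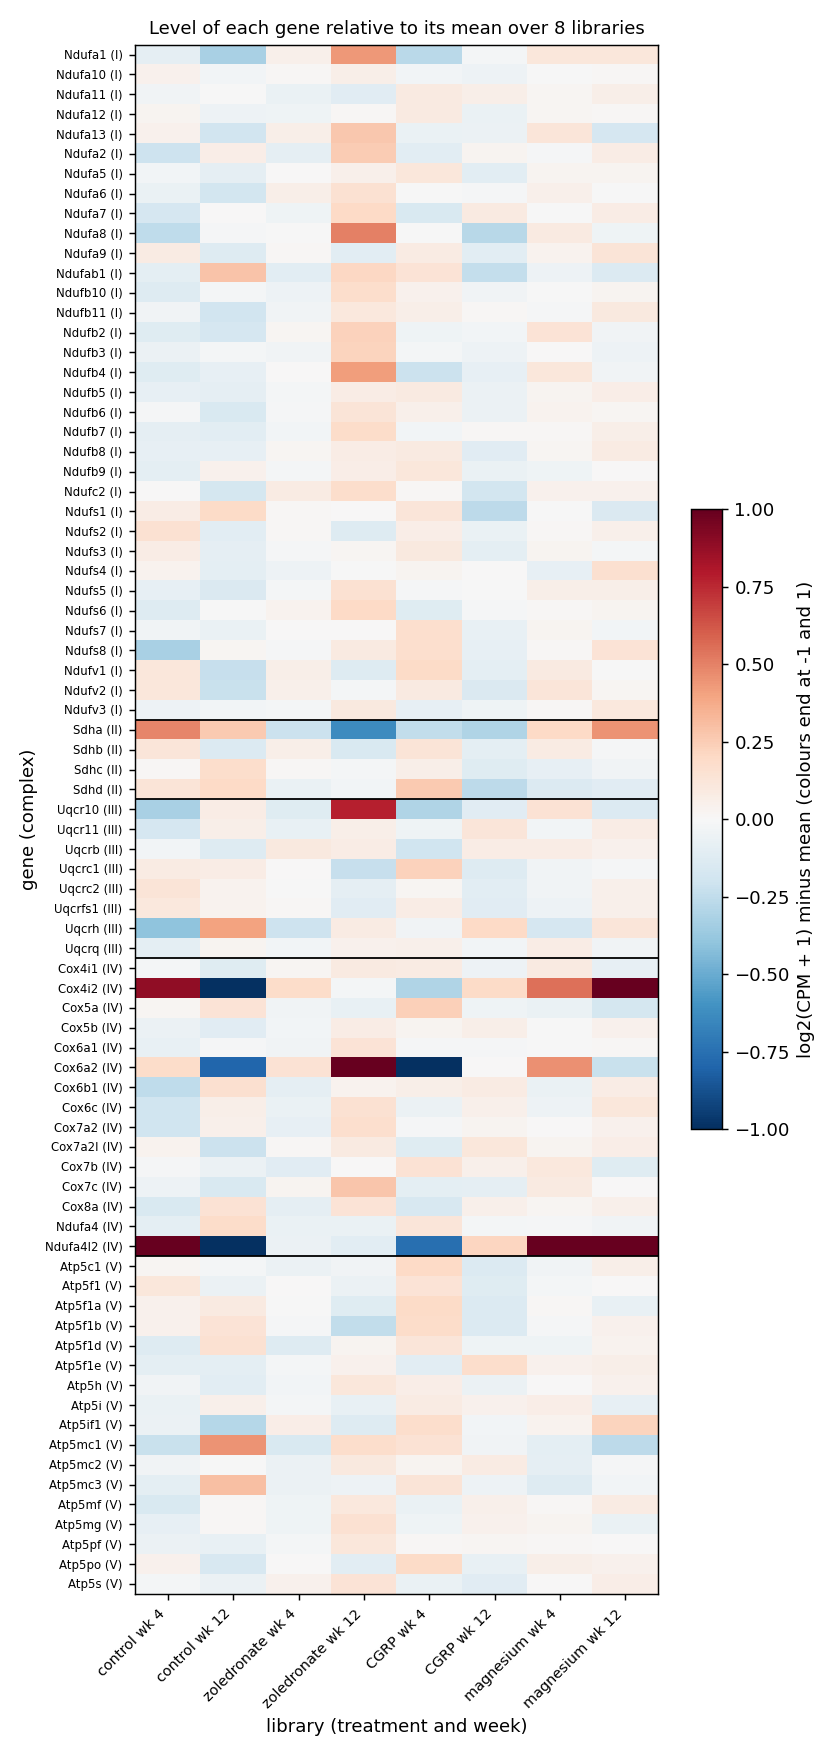
Level of 78 genes (rows, by complex) in the 8 libraries (columns), as log2(CPM + 1) minus the gene's mean over the libraries, red for higher and blue for lower, with colours ending at -1 and 1. Strong colour is limited to a few rows, Ndufa4l2, Cox4i2 and Cox6a2 in complex IV, Sdha in complex II and Uqcr10 in complex III.

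Ndufa4l2 varied most. Its level was 78.2 CPM at week 4 and 1.07 CPM at week 12 in control, and 24.2 and 23.3 CPM in zoledronate. CGRP libraries held 14.6 and 29.4 CPM, and magnesium libraries 61.8 and 74.4 CPM. Control at week 12 stood far below the rest, and without it the range was 14.6 to 78.2 CPM. As a share of Ndufa4 and Ndufa4l2 together, Ndufa4l2 gave 10.1% of UMIs (exact 95% interval 9.94% to 10.3%) in control at week 4 and 0.126% (0.107% to 0.148%) in control at week 12. The share was 3.30% and 3.19% in zoledronate, 1.77% and 3.87% in CGRP, and 7.75% and 9.32% in magnesium, at weeks 4 and 12. Ndufa4 itself ranged from 694 to 846 CPM.

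Cox4i2 ordered the libraries as Ndufa4l2 did, except that magnesium at week 12 stood above control at week 4. It measured 14.4 and 0.401 CPM in control, 8.43 and 7.18 CPM in zoledronate, 5.74 and 8.46 CPM in CGRP, and 11.2 and 16.6 CPM in magnesium, at weeks 4 and 12. Control at week 12 was again the lowest, with 56 UMIs in the library. Cox4i1, the version found in most tissues, stayed between 1220 and 1407 CPM. Cox4i2 therefore gave 0.0329% to 1.31% of the UMIs of the pair.

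Cox6a2 had another order. It measured 120 and 60.1 CPM in control, 116 and 265 CPM in zoledronate, 48.3 and 105 CPM in CGRP, and 144 and 90.0 CPM in magnesium, at weeks 4 and 12. The zoledronate library at week 12 was the highest and the CGRP library at week 4 the lowest. Of the UMIs of Cox6a1 and Cox6a2 together, Cox6a2 gave 20.1% (19.9% to 20.2%) in the former and 4.83% (4.72% to 4.93%) in the latter. Cox6a1 ranged from 914 to 1056 CPM. Of the other complex IV pairs, Cox6b1 ranged from 548 to 731 CPM and its testis version Cox6b2 from 0.108 to 0.260 CPM. Cox7a2 ranged from 434 to 558 CPM and Cox8a from 868 to 1071 CPM. Skeletal muscle markers summed to 35.3 to 182 CPM, were highest in control at week 12, where Cox6a2 was 60.1 CPM, and came mostly from Acta1, while Myh4, Ckm, Myod1 and Myog were not listed.

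The promoters of Cox6a2 and Ndufa4l2 are given because these isoform genes had the widest ranges among members with a promoter entry. In Cox6a2 the capitals mark a match to a loose form of the MEF2 motif, a muscle regulatory element. Any base was allowed at the middle positions of this pattern. It was found in 2 of 70 members (2.86%), Cox5b and Cox6a2, and in 3.12% of protein-coding promoters. These shares count the loose pattern, and a stricter MEF2 motif was not searched for. In Ndufa4l2 nothing is capitalised, since the core of the hypoxia response element, ACGTG, was not found in this window, against 17 of 70 members (24.3%) and 17.2% of protein-coding promoters.
Cox6a2, chr1:192219717-192219966, minus strand: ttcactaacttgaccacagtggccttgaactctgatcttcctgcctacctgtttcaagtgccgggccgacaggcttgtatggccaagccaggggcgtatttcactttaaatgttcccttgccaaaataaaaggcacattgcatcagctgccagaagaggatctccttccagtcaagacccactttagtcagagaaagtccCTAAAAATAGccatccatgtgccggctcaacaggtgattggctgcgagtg
Ndufa4l2, chr7:65241919-65242168, plus strand: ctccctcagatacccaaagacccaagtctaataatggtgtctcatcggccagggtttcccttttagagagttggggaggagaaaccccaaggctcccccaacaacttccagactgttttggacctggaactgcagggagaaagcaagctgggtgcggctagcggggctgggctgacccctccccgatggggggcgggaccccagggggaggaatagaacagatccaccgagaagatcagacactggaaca

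Complex II is succinate dehydrogenase, which also works in the tricarboxylic acid cycle. Sdha, its flavoprotein, measured 47.2 and 40.3 CPM in control, 28.6 and 21.2 CPM in zoledronate, 28.1 and 26.9 CPM in CGRP, and 38.5 and 46.1 CPM in magnesium, at weeks 4 and 12. All zoledronate and CGRP values lay under all control and magnesium values. Sdhb, the iron-sulfur subunit, showed no such split, with 121 to 147 CPM. The membrane anchors Sdhc and Sdhd ranged from 112 to 138 CPM and from 53.8 to 77.9 CPM.

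In complex III, Uqcr10, a small supernumerary subunit, measured 119 and 157 CPM in control, 136 and 255 CPM in zoledronate, 120 and 137 CPM in CGRP, and 165 and 135 CPM in magnesium, at weeks 4 and 12. Only the zoledronate library at week 12 exceeded 165 CPM. Uqcrh, the hinge protein near cytochrome c1, was higher at week 12 than at week 4 in every treatment: 286 and 498 CPM in control, 328 and 400 CPM in zoledronate, 368 and 434 CPM in CGRP, and 336 and 411 CPM in magnesium. The Rieske iron-sulfur protein Uqcrfs1 ranged from 148 to 173 CPM and the core protein Uqcrc1 from 111 to 153 CPM.

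**Figure D3:**
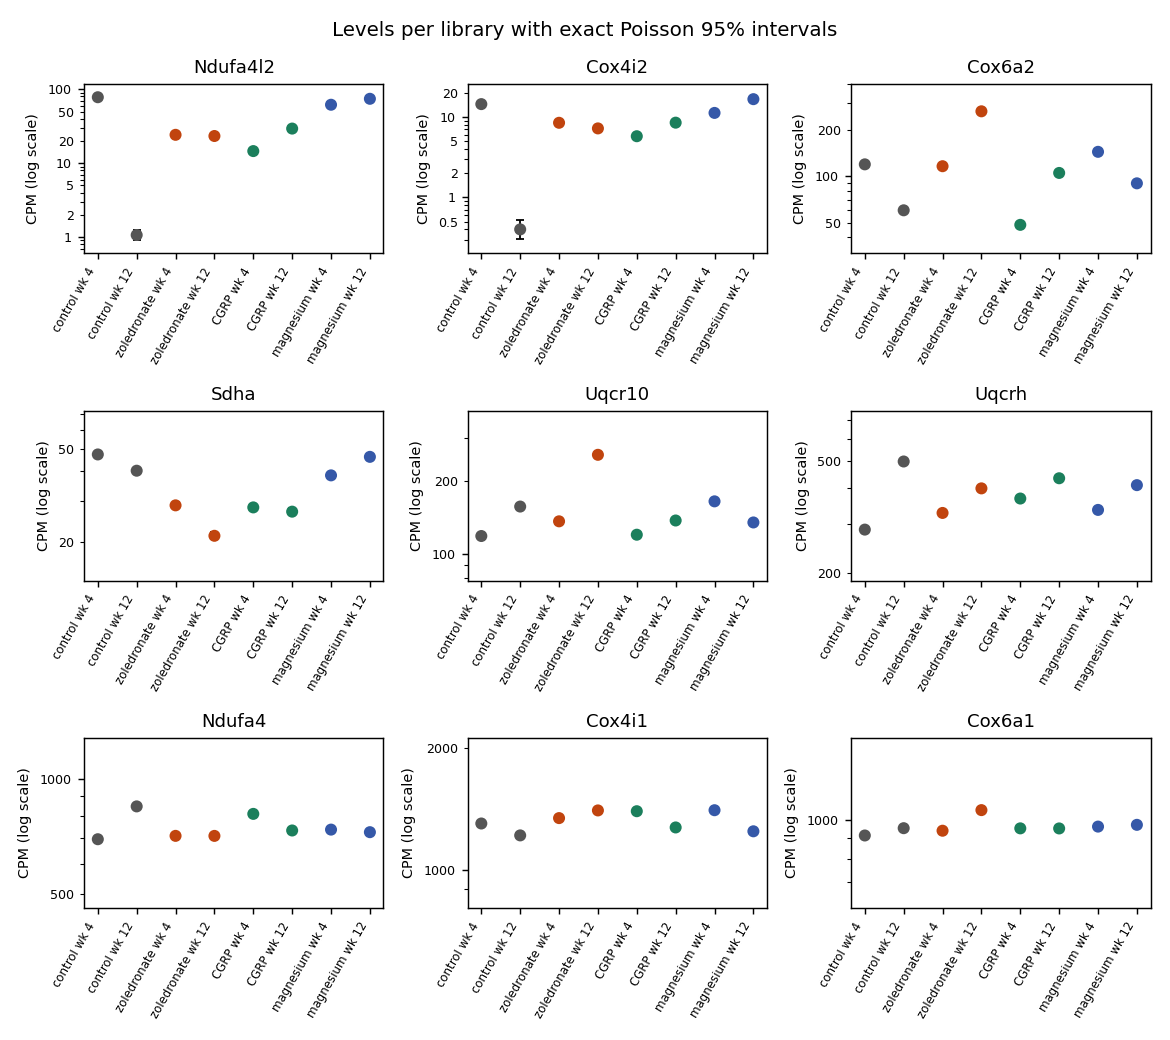
Level of 9 genes (panels) in the 8 libraries (horizontal axis), in CPM on a log scale (vertical axis), with exact Poisson 95% intervals, most of them smaller than the points. Ndufa4l2 and Cox4i2 are lowest in control at week 12, Cox6a2 and Uqcr10 are highest in zoledronate at week 12, and Ndufa4, Cox4i1 and Cox6a1 are nearly level.

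In complex I, 3 of 34 members ranged at least 1.5-fold over the libraries: Ndufa8, Ndufa1 and Ndufb4. Ndufs1, the large iron-sulfur subunit of the NADH-oxidising arm, ranged from 9.18 to 12.9 CPM and Ndufv1, which binds NADH, from 93.7 to 126 CPM. The widest was Ndufa8, with 46.7 and 55.4 CPM in control, 55.6 and 79.4 CPM in zoledronate, 55.5 and 45.9 CPM in CGRP, and 59.5 and 54.0 CPM in magnesium, at weeks 4 and 12. Ndufa1 ran from 304 CPM (control) to 515 CPM (zoledronate), both at week 12. Both genes encode supernumerary subunits. In complex IV, Cox5a, a supernumerary subunit, ranged from 516 to 686 CPM.

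In complex V, Atp5f1b, the catalytic beta subunit, ranged from 410 CPM in zoledronate at week 12 to 554 CPM in CGRP at week 4. Atp5if1, the inhibitor of ATP hydrolysis by the enzyme, ranged from 569 CPM in control to 811 CPM in magnesium, both at week 12. The c subunit of the proton-driven ring is encoded by 3 genes for the same mature protein. Atp5mc1 gave 35.3% of their UMIs in control at week 4 and 44.8% in control at week 12, while Atp5mc2 gave 53.3% and 43.3%. In the other libraries the share of Atp5mc1 was 34.2% to 40.0%.

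Zoledronate was first set against control. At week 4, 47 of 78 members were higher with zoledronate, where 48.6% of all 7189 genes were, and the median log2 ratio of CPM + 1 was 0.03, against -0.00 for all genes. None was at least 1.5-fold higher, where 1.31% of genes were, and 3 were at least 1.5-fold lower, where 1.18% of genes were. These were Ndufa4l2 at -1.65, Cox4i2 at -0.71 and Sdha at -0.70. Ndufs8, a conserved complex I subunit that carries iron-sulfur clusters, and Ndufa8 were the furthest upward, at 0.31 and 0.25.

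At week 12, 53 of 77 members were higher with zoledronate, where 36.7% of 7202 genes were, with a median of 0.10 against -0.12 for all genes. Complex I gave 30 of 34 higher and complex II 0 of 4. Past 1.5-fold, 4 members were higher (5.28% of genes) and 1 was lower (12.2% of genes). Folds are given as ratios of CPM with no pseudocount, so for genes near 0 they exceed the log2 ratios of CPM + 1. Ndufa4l2 was 21.9-fold higher (95% counting interval 18.6 to 25.9; log2 ratio of CPM + 1 3.56), Cox6a2 4.41-fold higher (4.31 to 4.52), Ndufa1 1.70-fold and Uqcr10 1.63-fold higher, and Sdha was 1.90-fold lower (1.82 to 1.98). Atp5f1b was second lowest, at -0.38. Cox4i2 fell under the 5 CPM mean here, with 7.18 against 0.401 CPM. Other genes differed between these 2 libraries too. A list of 15 mitotic genes summed to 181 CPM with zoledronate, against 1096 CPM in control. Fibroblastic markers summed to 57637 against 36562 CPM, with Dcn at 355 against 2.28 CPM, and smooth muscle and pericyte markers to 18370 against 13444 CPM. Tagln gave most of the last 2 sums, 13472 CPM with zoledronate and 10146 CPM in control. The part of these cell types in the member ratios was not tested. In cells with no UMI of Mki67, Top2a, Cenpf or Ube2c, the log2 ratios were 0.52 for Ndufa1 and 0.57 for Uqcr10, both under 1.5-fold. With TMM and DESeq2 scaling, the median of all genes moved by 0.11 and 0.13, and 60 and 64 members were higher. Over all genes the calls past 1.5-fold then split into 548 higher and 640 lower with TMM and 581 and 611 with DESeq2, against 380 and 878 on the CPM scale. Relative to the median of all genes, the member median was 0.22 higher on the CPM scale, 0.23 higher with either scaling and 0.12 higher in cells with no UMI of those 4 genes.

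**Figure D4:**
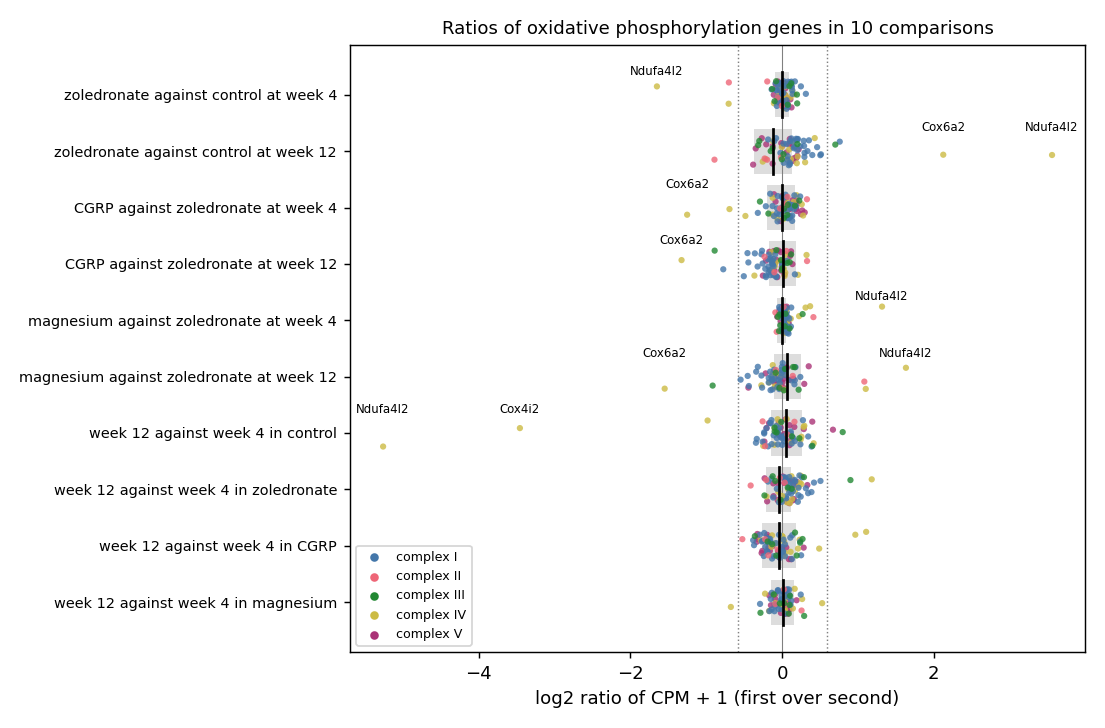
Log2 ratio of CPM + 1 (horizontal axis) for each member with a mean of at least 5 CPM, coloured by complex, in the 10 comparisons (vertical axis). Black lines and grey boxes are the median and the 25th to 75th percentiles of all genes, dotted lines mark 1.5-fold, and the named genes lie furthest from 0, down to -5.26 for Ndufa4l2 in control over time.

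CGRP was compared with zoledronate alone, the treatment it was added to, so these comparisons share their reference libraries with those above and below. At week 4, 53 of 78 members were higher with CGRP (48.9% of genes), with a median of 0.07 against -0.01. Among genes with a mean of at least 50 CPM the gap nearly closed. There 72.2% of the 72 members and 60.3% of all genes were higher, with medians of 0.070 and 0.064. None of the 78 members was at least 1.5-fold higher (4.47% of genes), and 2 were at least 1.5-fold lower (5.38% of genes). Cox6a2 was 2.41-fold lower (2.35 to 2.48) and Ndufa4l2 1.66-fold lower (1.58 to 1.75). Sdhd and Atp5mc1 were furthest upward, at 0.33 and 0.30. Mitotic genes summed to 1617 CPM with CGRP and 699 CPM without. Without cells that hold a UMI of Mki67, Top2a, Cenpf or Ube2c, the log2 ratio was -1.02 for Cox6a2 and -0.60 for Ndufa4l2. The fibroblastic sum also differed, being 57959 CPM in zoledronate alone and 39121 CPM when CGRP was added. Between these libraries Dcn fell from 134 to 9.31 CPM and Lum from 168 to 21.7 CPM. Of that list only Thy1 was higher with CGRP, reaching 80.6 CPM. How far this shift enters the member ratios was not tested.

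At week 12, 22 of 78 members were higher with CGRP (50.9% of genes), with a median of -0.10 against 0.01. Mitotic genes summed to 486 CPM with CGRP and 181 CPM without. In cells with no UMI of Mki67, Top2a, Cenpf or Ube2c, the member median lay at -0.06 relative to that of all genes, against -0.10 in all cells. With the total taken without cytosolic ribosomal proteins, 31 were higher, and the calls over all genes split into 539 higher and 337 lower, against 400 and 365. None was at least 1.5-fold higher (5.63% of genes), and 3 were at least 1.5-fold lower (5.13% of genes): Cox6a2 2.52-fold (2.47 to 2.57), Uqcr10 1.86-fold (1.83 to 1.89) and Ndufa8 1.73-fold (1.68 to 1.78). Complex I gave 30 of 34 lower. Sdha and Ndufa4l2 were furthest upward, at 0.33 and 0.32.

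Magnesium against zoledronate alone at week 4 gave 58 of 78 members higher (47.1% of genes), with a median of 0.03 against -0.01. Ndufa4l2 was 2.55-fold higher (2.46 to 2.65), the 1 member past 1.5-fold, as 0.612% of genes were higher and 0.528% lower. Sdha followed at 0.41. Sdhc and Sdhd, at -0.09 and -0.07, were the furthest downward.

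At week 12, 29 of 78 members were higher with magnesium (59.6% of genes), with a median of -0.04 against 0.07. Mitotic genes summed to 464 CPM with magnesium and 181 CPM without. In cells with no UMI of Mki67, Top2a, Cenpf or Ube2c, the member median lay at -0.06 relative to that of all genes, against -0.10 in all cells. Over all cells, TMM and DESeq2 scaling left 17 and 16 members higher. Ndufa4l2 was 3.19-fold (3.07 to 3.31), Cox4i2 2.31-fold (2.15 to 2.48) and Sdha 2.17-fold (2.08 to 2.26) higher, 3 members where 7.63% of genes passed 1.5-fold. Cox6a2 was 2.95-fold and Uqcr10 1.89-fold (1.86 to 1.93) lower, 2 members where 4.49% of genes passed.

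Weeks 4 and 12 were then compared within each treatment, on the same 8 libraries as above. In control, 37 of 78 members were higher at week 12 (58.0% of genes), and 28 with TMM, DESeq2 or the total without ribosomal proteins. The calls over all genes split into 488 higher and 380 lower with TMM, 489 and 377 with DESeq2 and 546 and 430 with that total, against 583 and 318. Uqcrh was 1.74-fold and Atp5mc1 1.59-fold higher (8.06% of genes passed 1.5-fold), and 3 members were lower (4.39% of genes): Ndufa4l2 73.3-fold (62.3 to 86.7), Cox4i2 35.9-fold (27.5 to 47.6) and Cox6a2 1.99-fold (1.94 to 2.04). On the scale of CPM + 1 the log2 ratios were -5.26, -3.46 and -0.98. Over the same interval fibroblastic markers went from 57885 to 36562 CPM, with Dcn from 148 to 2.28 CPM and Lum from 192 to 6.09 CPM, and skeletal muscle markers from 35.3 to 182 CPM. Their part in these ratios was not tested. In zoledronate, 54 of 78 were higher (41.6% of genes), and 64 with DESeq2, where the calls over all genes split into 286 higher and 335 lower, against 237 and 401. Cox6a2 was 2.28-fold and Uqcr10 1.87-fold higher (3.31% of genes), and no member was 1.5-fold lower (5.6% of genes), Sdha and Uqcrc1 being furthest down at -0.41 and -0.23.

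With CGRP, 29 of 78 members were higher at week 12 (44.6% of genes). Cox6a2 was 2.18-fold and Ndufa4l2 2.02-fold higher (6.94% of genes), and none was 1.5-fold lower (7.44% of genes), Sdhd and Ndufs1 being furthest down at -0.52 and -0.38. Mitotic genes went from 1617 to 486 CPM and fibroblastic markers from 39121 to 53709 CPM, with Dcn from 9.31 to 178 CPM. Their part was not tested. In cells with no UMI of Mki67, Top2a, Cenpf or Ube2c, the member median lay at -0.09 relative to that of all genes, against -0.02 in all cells. With magnesium, 47 of 78 were higher (51.4% of genes), but 36 with the total without ribosomal proteins. None was 1.5-fold higher (6.22% of genes), Cox4i2 and Uqcrh being furthest up at 0.53 and 0.29. Cox6a2 was 1.60-fold lower (4.59% of genes), and Ndufa13 was next at -0.29.

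A list of 21 conserved subunits, with bacterial counterparts, and 51 genes classed as supernumerary were then counted apart. The list may leave out other subunits with bacterial relatives, such as Ndufab1, Ndufs4, Ndufs6 or Ndufa12, which were classed as supernumerary. This split was chosen after values had been seen, and 2 definitions of it were tried. For zoledronate against control at week 4, 5 of 21 conserved and 40 of 51 supernumerary subunits were higher, where 48.6% of all genes were. At week 12 the counts were 8 of 21 and 40 of 51, and 14 of 21 and 37 of 51 in cells with no UMI of Mki67, Top2a, Cenpf or Ube2c. Most conserved subunits were higher in those cells, and also with TMM (11 of 21) and DESeq2 (12 of 21). The share of all genes that were higher moved too. It was 36.7% on the CPM scale, 44.5% in those cells, 48.8% with TMM and 50.9% with DESeq2. CGRP against zoledronate at week 4 gave 20 of 21 and 32 of 51, where 48.9% of all genes were higher. For CGRP over time, 1 of 21 conserved and 24 of 51 supernumerary subunits were higher at week 12, with medians of -0.24 and -0.00. TMM gave 30 of 51 supernumerary subunits higher. In cells with no UMI of Mki67, Top2a, Cenpf or Ube2c the counts were 2 of 21 and 17 of 51. Of all genes, 44.6% were higher in this comparison on the CPM scale, 48.4% with TMM and 48.3% in those cells. In zoledronate over time the counts were 8 of 21 and 43 of 51, with 11 of 21 conserved subunits higher under TMM and 12 of 21 under DESeq2. Of all genes, 41.6% were higher on the CPM scale, 50.2% with TMM and 53.0% with DESeq2.

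The remaining counts were 7 of 21 and 11 of 51 for CGRP against zoledronate at week 12 (11 conserved without ribosomal proteins), 13 and 41 for magnesium at week 4, and 14 and 12 for magnesium at week 12, where TMM gave 9 and 5 and DESeq2 8 and 5. Over time they were 10 and 27 in control, with 20 supernumerary under TMM, DESeq2 or the total without ribosomal proteins. In magnesium over time they were 12 and 30, or 10 and 21 with that total. The share of all genes that were higher moved with the scaling here too. With TMM it went from 59.6% to 51.5% for magnesium against zoledronate at week 12, and from 58.0% to 49.4% for control over time. Under the first definition, with Uqcrc1, Uqcrc2, Atp5f1e, Atp5h and Atp5pf added to the conserved class, the counts of 26 and 46 were 8 and 37 for zoledronate against control at week 4, 11 and 37 at week 12, 24 and 28 for CGRP at week 4, and 9 and 9 at week 12. They were 16 and 38, then 17 and 9, for magnesium at weeks 4 and 12, and 11 and 26, 11 and 40, 3 and 22, and 16 and 26 over time in control, zoledronate, CGRP and magnesium.

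Other genes of mitochondrial metabolism did not all share the direction of the subunits. In zoledronate against control at week 12, 36.7% of all genes were higher, with a median of -0.12. There 11 of 12 tricarboxylic acid cycle genes were lower, with a median of -0.36, led by Idh2 at -1.11 and Cs, citrate synthase, at -0.92. Cycs, cytochrome c, and Cyc1, cytochrome c1, were lower there too, at -0.28 and -0.47. Of 13 hypoxia response genes, 12 were higher, 8 of them at least 1.5-fold (5.28% of genes), with a median of 0.75, and Bnip3, a mitophagy receptor, was at 2.07. In control over time, where Ndufa4l2 and Cox4i2 were lower, 12 of 14 hypoxia response genes were lower, with a median of -0.57 (58.0% of all genes were higher). Vegfa, from 115 to 214 CPM, and Car9, from 73.4 to 124 CPM, were higher. Over the 8 libraries the hypoxia list summed highest in zoledronate at week 12, 2107 CPM. Ndufa4l2 was highest in control at week 4, 78.2 CPM, where the list summed to 1684 CPM. A relation between the 2 was not tested. In magnesium over time, 16 of 16 glycolysis genes were higher (51.4% of all genes), with a median of 0.50, while the member median was 0.02. For CGRP against zoledronate at week 4, 59 of 66 mitochondrial ribosomal protein genes were higher (48.9% of all genes), with a median of 0.16. For CGRP over time 53 of 66 were lower, with a median of -0.18, where 44.6% of all genes were higher. Of 35 assembly factors, 17 were higher in zoledronate against control at week 12, where 36.7% of all genes were. Their median was -0.02, against -0.12 for all genes.

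The 3 variable complex IV genes were also read per cell, each cell thinned to 5000 UMIs. Ndufa4l2 had a UMI in 0.424% of cells (33 of 7777 cells, exact interval 0.292% to 0.595%) in control at week 12 and in 21.8% (20.9% to 22.7%) in magnesium at week 12. Without thinning these shares were 1.58% and 43.6%. Cox4i2 ranged from 0.206% to 7.36% of cells and Cox6a2 from 16.4% in CGRP at week 4 to 59.1% in zoledronate at week 12, or 37.3% and 82.4% without thinning. No class of cells known to lack these genes was at hand, so a background from free RNA could not be set beside these shares.

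Cells with an Ndufa4l2 UMI also held more Cox4i2. Cox4i2 was higher in them in 7 of 8 libraries, by 1.41- to 2.47-fold, and in all 7 the exact intervals of the 2 kinds of cell did not overlap. In control at week 12, with 33 such cells, no Cox4i2 UMI was seen in them. Bnip3 was higher in cells with an Ndufa4l2 UMI in all 8 libraries, by 1.12- to 2.25-fold, and Higd1a, a hypoxia-induced partner of complex IV, in 7, by 1.11- to 1.33-fold. Other hypoxia response genes did not all follow. Ndrg1 was higher in 7 libraries, with intervals apart in 2, but Vegfa in only 2 of 8, with ratios of 0.869 to 1.10. The other oxidative phosphorylation genes, summed, differed little, with ratios of 0.990 to 1.06. Cells with a Cox6a2 UMI held less of the proliferation marker Mki67 in all 8 libraries, with ratios of 0.295 to 0.800, and more Bnip3 in all 8. Mki67 was also lower in all 8 in cells with an Ndufa4l2 UMI (0.663 to 0.898) and with a Cox4i2 UMI (0.477 to 0.981). The Mki67 intervals were apart in 8 libraries for Cox6a2, 4 for Ndufa4l2 and 3 for Cox4i2. Vegfa was higher in cells with a Cox6a2 UMI in 6 of 8 libraries, Higd1a in 4 and Ndrg1 in 1. This split of cells and the genes beside it were chosen after values had been seen.

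**Figure D5:**
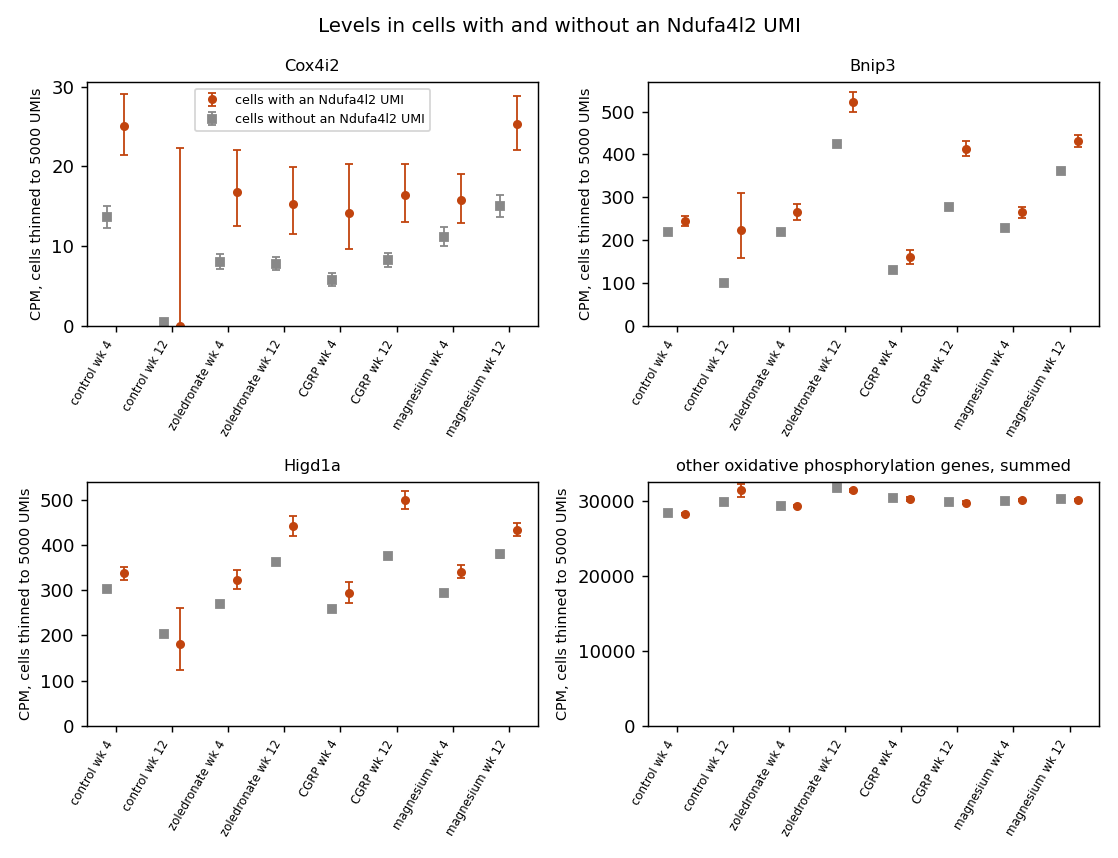
Levels of Cox4i2, Bnip3, Higd1a and the other members summed (panels; CPM, cells thinned to 5000 UMIs) in cells with (circles) and without (squares) an Ndufa4l2 UMI, with exact Poisson 95% intervals, in the 8 libraries. Cox4i2 is higher in cells with Ndufa4l2 in 7 libraries, and the other members are nearly equal.

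Cells were also split by genes of dividing cells. In all 8 libraries, cells with a UMI of Mki67, Top2a, Cenpf or Ube2c had a lower summed level of the 80 genes than cells without, by 3.69% in CGRP at week 12 to 7.01% in control at week 12. Such cells were 7.08% of cells in zoledronate at week 12 and 52.5% in CGRP at week 4, in thinned cells. A UMI of 1 of these genes does not by itself mark a dividing cell, and no background share was at hand. Among cells without these UMIs, zoledronate at week 12 still had the highest summed level, 32094 CPM, followed by CGRP at week 4 with 31254 CPM.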

How the data were processed

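Single-cell RNA libraries (10x chemistry V3) were made from rat callus cells, 10000 cells per group, per the labels. The authors deposited raw counts per gene and barcode, per the file values. The submitters' processing notes name STAR and Rnor_6.0. The annotation, the cell calling and any filters were not given in the sources used here. Among deposited genes the rarest is found in 5 cells of a library and the poorest barcode holds 500 genes. No gene with a symbol starting with Mt- was listed, and mitochondrially encoded genes under other names were not searched for.

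Counts of barcodes with at least 5000 UMIs (65208 of 69624) were summed per library and scaled to CPM. Barcodes under the minimum held the members at 15224 to 24869 CPM. Log2 ratios and calls used a pseudocount of 1 CPM and genes with a mean of at least 5 CPM in the 2 libraries; printed folds are ratios of CPM with no pseudocount. With 1 library per group no test was run, and 1.5-fold stands in for a call. Intervals are exact Poisson or Clopper-Pearson at 95%, and PCR or sampling of animals adds error they do not cover. No doublet caller was run and no doublets were removed.

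Named genes were both genes of each isoform pair, 9 fixed subunits, and per comparison up to 6 members per direction past 1.5-fold, or the 2 furthest where fewer than 2 passed. The members, lists and tests were chosen with earlier results of these data known. The alternatives were all barcodes, thinning, equal weight per cell, TMM (edgeR 4.0.16), size factors of DESeq2 1.42.0, a total without ribosomal proteins, no filter, a 50 CPM filter, and leaving out cells with a UMI of Mki67, Top2a, Cenpf or Ube2c. Sums were made in Python 3.11.15 with pandas 2.3.3, intervals in scipy 1.17.1. The scripts were tested on simulated data.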

Additional observations from a re-analysis of the deposited data

Results flagged for a closer look

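The same contrast was set side by side at the 2 weeks, and week 12 against week 4 between the 4 treatments. In 6 of these cases a member was at least 1.5-fold apart in opposite directions; pairs of other contrasts were not searched. The difference between the comparisons was not tested in any of them, since each rests on single libraries. Ndufa4l2 had a log2 ratio of -1.65 for zoledronate against control at week 4 and 3.56 at week 12, a gap of 5.21. Its ratio over time was -5.26 in control and 0.96 with CGRP, a gap of 6.22. Both cases rest on the control library of week 12, in which Ndufa4l2 was at 1.07 CPM. Cox6a2 over time was at -0.98 in control, against 1.18 in zoledronate (a gap of 2.16) and 1.11 with CGRP (a gap of 2.09). With magnesium it was at -0.68 over time, which is -1.86 from the zoledronate value and -1.78 from the CGRP value.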

How the results depend on the processing

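Over 9 alternatives and 10 comparisons, 86 of 90 counts of members higher stayed within 1.5 times and in the same direction. For control over time the count of 37 of 78 became 40 with each cell thinned to 5000 UMIs, which turned the majority, and the median became 0.0064. For magnesium over time 47 became 36 with the total without cytosolic ribosomal proteins, and the median became -0.0085. For magnesium against zoledronate at week 12, 29 became 17 with TMM and 16 with DESeq2. The causes were not tested. For zoledronate against control at week 12, the 5 members past 1.5-fold became 8 with DESeq2 and 3 without cells that hold a UMI of Mki67, Top2a, Cenpf or Ube2c, or with a mean of at least 50 CPM. All 10 differences between the member median and the median of all genes kept their sign under the 9 alternatives, but some came near 0. For CGRP against zoledronate at week 4 the difference was 0.0057 with the 50 CPM filter. For CGRP over time it was -0.0044 with equal weight per cell. With cells that hold a UMI of Mki67, Top2a, Cenpf or Ube2c left out, the difference for CGRP over time was -0.092. Of 249 recomputed ratios of members past 1.5-fold, 247 stayed past it. The other 2 were Ndufa1 and Uqcr10 in zoledronate against control at week 12, when cells with a UMI of Mki67, Top2a, Cenpf or Ube2c were left out. Leaving out those cells moved isoform shares by 0.757 to 1.38 times. No paired analysis was possible because each group is 1 library and the labels carry no replicate numbers. Counting depth limits Cox6b2, Ndufa10l1 and, in control at week 12, Cox4i2 and Ndufa4l2.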
